A study of Mus musculus with 75 samples.

Results

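Red cell genes were followed through every organ of aged and young mice. The set named 8 genes: Hba-a1, the alpha chain of adult hemoglobin; Ahsp, the alpha chain's chaperone; Alas2, the erythroid enzyme that starts heme synthesis; Slc4a1, the anion exchanger band 3 of the red cell membrane; Car1, carbonic anhydrase 1; Klf1, an erythroid transcription factor; Epor, the erythropoietin receptor; and Tfrc, transferrin receptor 1, which brings iron into cells. They were chosen by name, as the row of each symbol with the highest mean. Of these, 7 were found among the 20644 genes of the tissue table and the same 7 among the 16925 genes of the parabiosis table; Ahsp was not analysed here. Hba-a1 was found by its RefSeq transcript, NM_008218. Its values were identical to those of the neighbouring copy Hba-a2, so the 2 copies cannot be told apart.

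Red cells form from progenitors in the bone marrow and, in mice, also in the spleen, which enlarges this output under demand. Early erythroid cells respond to erythropoietin through Epor and take up iron through Tfrc; Klf1 then switches on the globin, heme and membrane genes. Reticulocytes leave for the blood without a nucleus but still carry globin and other long-lived transcripts, whereas mature red cells hold little RNA. Tfrc is also used by other dividing cells, and Car1 is abundant in the lining of the colon.

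All animals were C57BL/6 mice with no gene change given in the labels, and all were perfused with PBS before the organs were taken. The tissue experiment held 3 aged mice of 22 months and 3 young mice of 3 months, with no treatment, each giving bone marrow (flushed from tibia and femur), spleen, thymus, lung, liver, colon, hippocampus, choroid plexus and cervical, inguinal and mesenteric lymph nodes. The 63 libraries analysed gave 2 or 3 mice per organ and age: bone marrow of young mouse 1, cervical nodes of young mouse 1 and liver of aged mouse 2 were not used. In the parabiosis experiment 2 mice shared a circulation, and only their choroid plexus was measured: young (3 months) joined to young (isochronic, 3 libraries), young joined to old (young heterochronic, 3), old (22 months) joined to old (old isochronic, 3) and old joined to young (old heterochronic, 2). A different RNA kit was used for each experiment, so levels are compared within an experiment only.

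Values were weighted reads per transcript divided by 1 factor per library; 1 read was worth 0.527 to 2.19 in the tissue libraries and 0.783 to 1.48 in the parabionts. Libraries held 187685 to 1134181 reads in the tissues and 534042 to 990827 in the parabionts. Differences below are on the log2 scale after adding the worth of 1 read, tested with limma over all genes and adjusted by Benjamini-Hochberg; a gene is called at an adjusted p under 0.05. Values are not per transcript length, so levels are compared across libraries and not across genes. In bulk RNA, more red cells of a stage and more RNA per cell cannot be told apart.

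Several libraries of young mouse 2 held RNA of other organs. Its spleen gave a summed lung epithelium signal (9 markers) of 37373, against 202 to 289 in the other 5 spleens, and its lung gave a summed liver signal (9 markers) of 68065, against 35.8 to 75.9 in the other 5 lungs. Its mesenteric node library held a summed colon signal of 5409, where the other 5 held at most 48.5. The liver of young mouse 1 gave a lung signal of 6217 against 54.7 to 129 in the other 4 livers. The inguinal node library of aged mouse 3 gave a summed fat cell signal of 20066 against 74.4 to 1366 in the other 5. That library and the inguinal nodes of young mouse 2 gave liver signals of 736 and 907, against 31.8 to 170 in the other 4. The cervical nodes of aged mouse 3 gave a summed choroid plexus signal of 3149, against 154 to 452 in the other 4. In the hippocampus of young mouse 2, B cell markers summed to 874 and T cell markers to 641, with at most 12.6 in the other 5. Neuron markers there summed to 1898 against 6782 to 8089. The cervical nodes of young mouse 2 held neuron markers of 1773 against 21.6 to 33.7 in the other 4. The liver of young mouse 2 held thymocyte markers of 1321 against 8.23 to 18.9 in the other 4. The main results were recomputed without these libraries, and values without them are given where a call, a direction or the size changed most. In the organ contrasts without mixed libraries the cervical nodes of aged mouse 3 were kept.

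The promoters of the erythroid members are printed because these genes stood highest together in bone marrow and spleen. Sequences are the 250 bases before the RefSeq transcription start (GRCm38.p6, 5′ to 3′ on the gene's strand): Hba-a1 at chr11:32283422-32283671 (plus), Alas2 at chrX:150547167-150547416 (plus), Klf1 at chr8:84901732-84901981 (plus) and Epor at chr9:21963577-21963826 (minus). The table held no entry for Slc4a1 or Car1. Capitals mark GATAA, the core of the motif read by GATA factors, or its complement TTATC, and CCNCNCCC, a motif read by Klf1 and related factors, or its complement; matches to CCNCNCCC overlap one another.
Hba-a1: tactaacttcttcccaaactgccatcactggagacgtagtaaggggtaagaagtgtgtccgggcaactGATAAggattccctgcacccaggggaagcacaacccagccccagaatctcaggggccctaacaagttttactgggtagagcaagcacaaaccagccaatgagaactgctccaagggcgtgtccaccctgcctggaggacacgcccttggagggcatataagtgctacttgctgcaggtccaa
Alas2: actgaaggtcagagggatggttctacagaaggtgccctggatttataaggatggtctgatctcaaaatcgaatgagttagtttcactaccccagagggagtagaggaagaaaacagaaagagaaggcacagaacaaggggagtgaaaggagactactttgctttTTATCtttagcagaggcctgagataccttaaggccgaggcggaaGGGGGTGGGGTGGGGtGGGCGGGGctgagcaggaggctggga
Klf1: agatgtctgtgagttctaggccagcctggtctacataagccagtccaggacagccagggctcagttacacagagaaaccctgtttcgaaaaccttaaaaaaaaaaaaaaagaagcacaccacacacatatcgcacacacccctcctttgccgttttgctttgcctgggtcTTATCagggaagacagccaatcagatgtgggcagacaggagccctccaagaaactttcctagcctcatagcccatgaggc
Epor: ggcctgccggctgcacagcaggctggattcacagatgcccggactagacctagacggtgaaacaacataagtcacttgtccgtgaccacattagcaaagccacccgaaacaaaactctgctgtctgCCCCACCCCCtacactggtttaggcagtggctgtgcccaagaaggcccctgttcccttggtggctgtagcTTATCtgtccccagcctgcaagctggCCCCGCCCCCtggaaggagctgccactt
Each of these 4 promoters held GATAA once, starting 182 (Hba-a1), 86 (Alas2), 80 (Klf1) and 54 (Epor) bases before the start site; 22.6% of 32851 mouse promoters of the same length held it. The longer AGATAA was in Alas2 and Epor, and in 9.99% of all promoters; GATAA was added to the search after AGATAA had been run. CCNCNCCC matched 4 times each in Alas2 and Epor and not in the windows of Hba-a1 and Klf1, and was in 45.9% of all promoters. CCAAT, in 33.8% of all, stood 88 bases before the start in Hba-a1 and 64 before it in Klf1. The Tfrc windows, from 2 start sites, had CCNCNCCC and no GATAA.

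**Figure D1:**
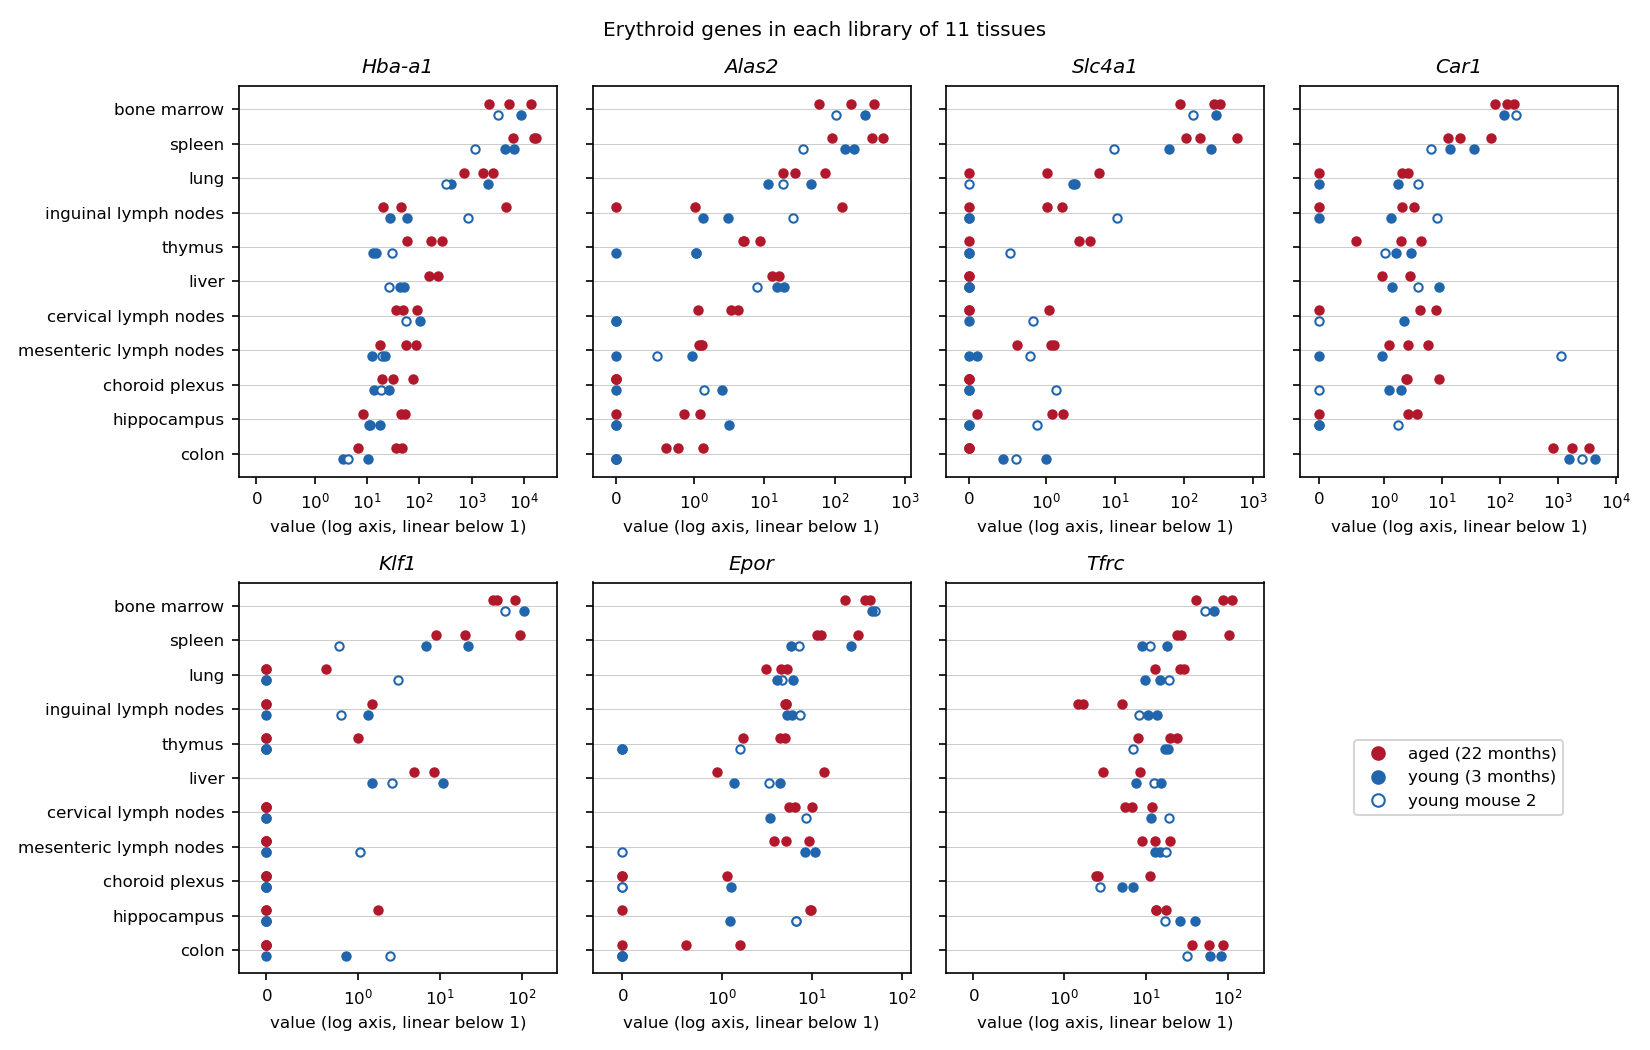
Value of each of the 7 erythroid genes (x axes, log scale, linear below 1) in every library of the 11 tissues (rows); red is aged, blue young, open circles young mouse 2. Hba-a1, Alas2, Slc4a1, Klf1 and Epor have their highest medians in bone marrow or spleen, Car1 in colon, and Tfrc is high in both bone marrow and colon.

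Car1, Epor and Tfrc were higher in bone marrow than in spleen, and no difference was called for Hba-a1, Alas2, Slc4a1 or Klf1. Of 10545 genes tested, 34.3% were called between bone marrow and spleen, 16.4% higher and 17.8% lower in bone marrow, and 3 of the 7 members were called. Of the called genes 48.01% were higher in bone marrow, and 31.19% after scaling to the same total, which moved the median of all genes to -0.23. The median difference of the 7 members was 1.52, against -0.01 for all genes tested.

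Car1 had the largest difference of the 7 members. It read 178, 81.9 and 131 in the aged and 186 and 117 in the young marrow, against 71.4, 12.6 and 20.4 in the aged and 36.0, 6.40 and 13.7 in the young spleens. Every marrow library was above every spleen library, which was true of 9.93% of all genes tested. The log2 difference was 2.71 (SE 0.55, adjusted p = 0.0044, limma), and within the 5 mice with both organs bone marrow was 2.49 to 29.1 times higher. The size fell to 2.26 without young mouse 2, with an adjusted p of 0.0417.

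Epor, through which erythropoietin acts, read 44.0, 23.4 and 38.9 in the aged and 50.6 and 46.8 in the young marrow. The spleens read 33.0, 12.6 and 11.4 in the aged and 27.5, 7.20 and 5.89 in the young, so that the lowest marrow, that of aged mouse 2, lay inside the spleen range. Bone marrow was higher in 5 of 5 mice, by 1.33 to 7.94 times, and the log2 difference was 1.53 (SE 0.37, adjusted p = 0.0047, limma).

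Tfrc read 86.3, 41.0 and 111 in the aged and 52.2 and 67.8 in the young marrow. Its spleen values were 104, 26.4 and 24.0 in the aged and 18.0, 11.2 and 8.83 in the young mice. Bone marrow was higher in 4 of 5 mice, the exception being aged mouse 1, whose spleen held the most Tfrc of the 6. The log2 difference was 1.52 (SE 0.40, adjusted p = 0.0107, limma). Without young mouse 2, which leaves 4 bone marrow and 5 spleen libraries, Epor (1.38, adjusted p = 0.0633) and Tfrc (1.59, adjusted p = 0.0928) were no longer called.

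Klf1 read 82.6, 50.1 and 43.7 in the aged and 62.0 and 107 in the young marrow, and 93.9, 20.1 and 8.99 in the aged and 22.2, 0.80 and 6.87 in the young spleens. It was higher in the marrow of 4 of 5 mice, again with aged mouse 1 as the exception, and its difference of 2.34 missed the threshold (SE 0.81, adjusted p = 0.0587). Slc4a1 spread most among the spleens, from 9.60 in young mouse 2 to 576 in aged mouse 1, with 85.8 to 331 in the marrow (difference 0.88, adjusted p = 0.519).

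Alas2 read 172, 61.1 and 363 in the aged and 104 and 268 in the young marrow, and 486, 91.9 and 341 in the aged and 189, 35.2 and 141 in the young spleens. Hba-a1 read 5277, 2119 and 13955 in the aged and 3251 and 8765 in the young marrow, and 17344, 6110 and 15498 in the aged and 6624, 1164 and 4356 in the young spleens. The organs overlapped for both genes, and the differences were 0.05 (95% interval -1.67 to 1.77) for Alas2 and -0.20 (-1.84 to 1.43) for Hba-a1.

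Since both organs came from the same animals, the fit was repeated with the mouse as a block. That paired fit called 5 members higher in bone marrow, Slc4a1 (1.42, adjusted p = 0.00027, limma), Car1 (3.01), Klf1 (2.78, adjusted p = 6.6e-06), Epor (1.86) and Tfrc (1.65), where 35.8% of all genes were called. The same 5 were called in the paired fit without any 1 aged mouse. Leaving out a young mouse leaves 1 young mouse with both organs, so those fits are not counted. The paired fit leaves fewer residual degrees of freedom than the unpaired fit, and it includes the spleen of young mouse 2, whose library held lung RNA. Alas2 (0.28) and Hba-a1 (0.06) were not called.

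**Figure D2:**
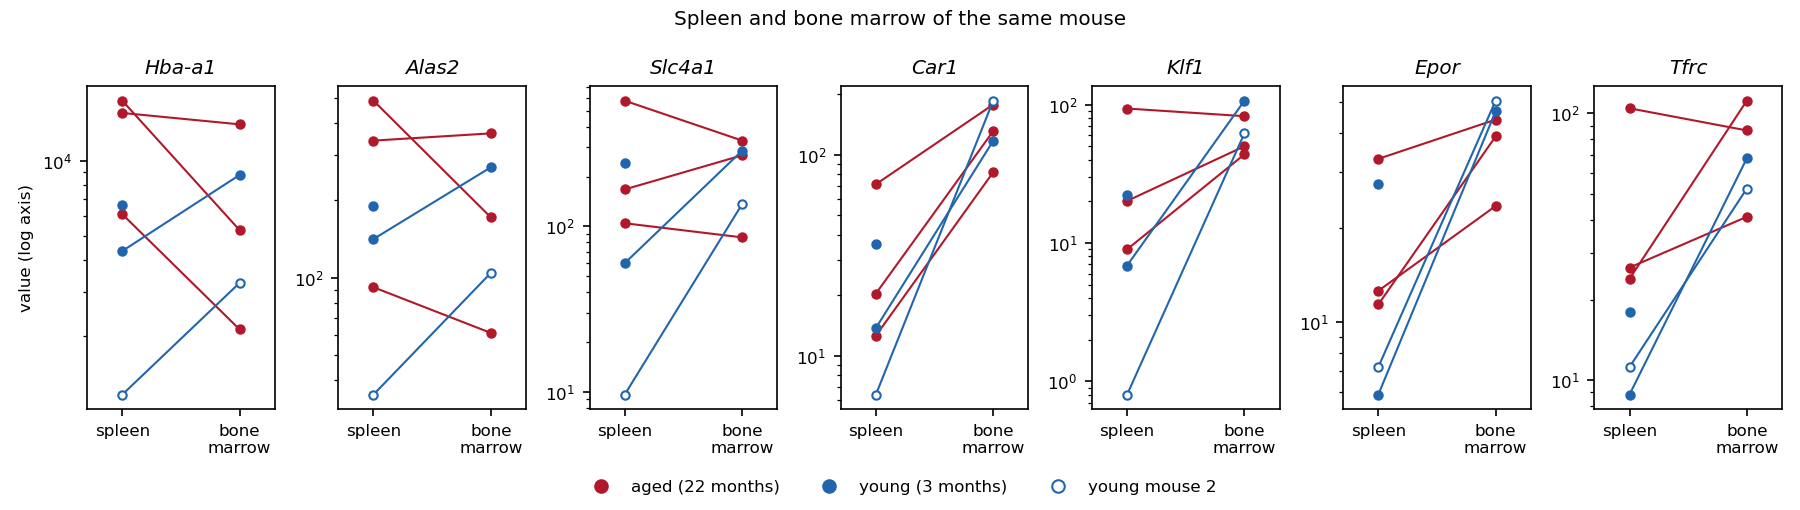
Value of each erythroid gene (y axes, log scale) in spleen and bone marrow, with lines joining the organs of 1 mouse; the unjoined blue point is the spleen of young mouse 1. Car1 and Epor are higher in bone marrow in 5 of 5 mice, and Hba-a1 in 2 of 5.

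Other genes of the pathway were read from lists, beside 16.4% of all genes tested called higher and 17.8% called lower in bone marrow. Among erythroid transcription factors 8 of 14 tested were higher in bone marrow and none was lower: Myb, a factor of immature progenitors (127 against 17.2, log2 difference 2.85), Gfi1b (37.9 against 8.60, 2.62), the cell cycle factor E2f2 (120 against 48.7, 1.502) and Gata1, the main erythroid GATA factor (46.7 against 11.6, 2.26) led them. Of the genes of erythropoietin signalling and iron uptake, 6 of 10 were higher, among them transferrin receptor 2, Tfr2 (14.4 against 2.86, 2.49), and Stat5a, which relays the receptor's signal (62.5 against 39.3, 0.70). Of heme synthesis and mitochondrial iron import, 4 of 14 were higher: Glrx5 (158 against 94.6, 1.03), Alad (71.5 against 36.4, 1.22), Abcb6 (14.6 against 7.65, 0.97) and Slc25a38 (35.1 against 21.9, 0.73). Of the red cell membrane and skeleton 2 of 16 were higher, Icam4 (19.5 against 7.40, 1.63) and Add2 (17.5 against 7.59, 1.78). Among late maturation genes Car1 was higher and catalase, Cat, lower (37.9 against 70.1, -0.92), of 16 tested, and of 6 globin genes none was called. Values here are means over 5 bone marrow and 6 spleen libraries, and each called gene passed at an adjusted p under 0.05 (limma).

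The lists differed in how far they lay from all genes. The medians were 1.16 for the transcription factors, 0.95 for erythropoietin and iron uptake, 0.96 for heme synthesis, 1.14 for the membrane, 0.44 for late maturation and -0.19 for the globins. In the fit paired by mouse the counts were 9 of 14, 6 of 10, 13 of 14, 8 of 16, 8 of 16 (with 1 lower) and 0 of 6, in the order of the lists named first. In the paired fit 17.4% of all genes were called higher. Without young mouse 2 and unpaired, where 14.4% of all genes were called higher, they were 7 of 14, 4 of 10, 2 of 14, 2 of 15, 1 of 16 and 0 of 6.

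Markers of other cells moved with the organ. All 10 proliferation genes were called higher in bone marrow, for example Cdc20 (54.2 against 9.50, 2.59). All 12 neutrophil genes were higher, such as S100a8 (log2 difference 6.77), and their sum was 73464 to 98630 in bone marrow and 690 to 2239 in spleen. Of the 11 platelet genes 10 were higher, with sums of 387 to 1299 against 106 to 424. Of the 11 genes of iron recycling macrophages 8 were lower in bone marrow, with sums of 358 to 1133 against 875 to 2308: Vcam1, an adhesion molecule (86.8 against 264, -1.54), Spic, the factor of red pulp macrophages (9.77 against 60.6, -2.59) and the iron exporter Slc40a1 (67.2 against 143, -1.07). Of the regulators, Bmp4 (0.577 against 9.64, -2.84) and Kitl (0.511 against 9.64, -2.85), which support stress red cell formation in the spleen, were lower in bone marrow, while Epo was listed at 0 in every library of both organs. The part of these cells in the members' differences was not tested.

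Aged and young mice were then compared within each organ. In the spleen all 7 members were fitted above 0 and none was called, where 18 of 10414 genes (0.173%) were called and 1008 had an unadjusted p under 0.05. The differences ran from 0.61 for Epor to 2.01 for Slc4a1 (SE 1.42), with Hba-a1 at 1.87 (95% interval 0.14 to 3.60, adjusted p = 0.487, limma) and Klf1 at 1.97 (-1.06 to 5.00). Tfrc was the member whose 3 aged spleens all lay above the 3 young ones (1.66, SE 0.52, adjusted p = 0.374), as did 8.82% of all genes tested. Without the spleen of young mouse 2, the difference of Hba-a1 was 1.14 (adjusted p = 0.643), of Slc4a1 0.84, of Klf1 1.00 and of Alas2 0.60, while that of Tfrc was 1.60 (adjusted p = 0.452). Aged mouse 1 held the highest spleen value of all 7 members, and young mouse 2, whose library held lung RNA, the lowest of 5: Hba-a1, Alas2, Slc4a1, Car1 and Klf1.

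Other genes of the pathway were also fitted above 0 in aged spleen. All 14 heme genes were fitted above 0 (median 0.96), led by Glrx5 (140 against 48.7), Slc25a37 (211 against 79.8), Fech (52.2 against 23.9) and Cpox (37.9 against 12.2), as were 14 of 15 membrane genes (median 1.55) such as Epb41 (69.5 against 37.8), and all 10 proliferation genes (median 0.96) led by Plk1 (22.9 against 5.65). The median of all genes was 0.01. No gene of these lists was called. Without young mouse 2, whose spleen library held lung RNA, the medians were 0.57 for heme genes (12 of 14 above 0), 0.68 for membrane genes (14 of 14) and 0.47 for proliferation (9 of 10), again with none called (0.489% of all genes called). Gfi1b (15.2 against 2.00) was the transcription factor with the smallest p. Of the neutrophil genes, 6 of 12 were called higher in aged spleen, with sums of 1420 to 2239 in aged and 690 to 781 in young, and 10 of 11 macrophage genes were fitted above 0 with none called; their part in the members' values was not tested.

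In bone marrow no member was called, where 5 of 10309 genes (0.0485%) were, and 5 of 7 were fitted below 0. Hba-a1 differed by 0.01 (95% interval -3.30 to 3.33), Alas2 by -0.10, Slc4a1 by -0.00, Car1 by -0.25, Klf1 by -0.52 (-1.13 to 0.09), Epor by -0.49 and Tfrc by 0.30. Epor lay lower in all 3 aged libraries than in both young ones, as did 9.8% of all genes tested. The sign for Hba-a1 turned with 3 other scalings, at most to -0.07.

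The difference between the organs in the effect of age was tested directly. All 7 members were fitted below 0 in bone marrow relative to spleen, from -1.05 for Car1 to -2.51 for Klf1 (95% interval -6.26 to 1.25), and none was called (adjusted p = 0.988 for each, limma), where 7 of 10545 genes (0.0664%) were. In the fit with the mouse as a block, Hba-a1 (-2.38, adjusted p = 0.0381), Slc4a1 (-3.10, adjusted p = 0.0112) and Klf1 (-3.39, adjusted p = 0.0414) were called, beside 0.228% of all genes. Only 2 young mice had both organs. Without aged mouse 1 the paired fit called Slc4a1 alone, without aged mouse 2 no member, and without aged mouse 3 it called 4 (Hba-a1, Alas2, Slc4a1, Klf1). Leaving out either young mouse leaves a young arm of 1 mouse, so neither fit is read. Without young mouse 3 that arm rests on the spleen library with lung RNA. By mouse, marrow over spleen for Slc4a1 was 0.574, 0.821 and 1.61 in the aged and 14.2 and 4.78 in the young, and for Hba-a1 it was 0.304, 0.347 and 0.900 in the aged and 2.79 and 2.01 in the young.

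Outside the blood forming organs the lung stood out. Hba-a1 in lung read 2555, 1681 and 721 in the aged and 402, 326 and 2112 in the young mice, that is 5.34% to 41.8% of 6110, its median over the bone marrow and spleen libraries. The medians of the other 8 organs lay between 0.140% in colon and 0.907% in cervical nodes. The highest of these without young mouse 2 was liver at 1.66% (0.827% with it), followed by cervical nodes at 1.14%. Against the mean of the other 8, Hba-a1 in lung differed by 4.57 (SE 0.64, adjusted p = 4.2e-07, limma) and Alas2 by 3.33 (SE 0.49, adjusted p = 3.5e-07); 35.8% of 15017 genes were called in this contrast. Without young mouse 2 they were 4.88 and 3.41, with adjusted p of 6.2e-06 and 8.1e-06 (limma). Outside lung, 2 libraries of these organs reached the lung range, both of inguinal nodes: aged mouse 3 (Hba-a1 4598), whose library held fat cell RNA, and young mouse 2 (865). Both also held the highest summed liver signals of the inguinal libraries (736 and 907).

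Relative to Hba-a1, the range of Alas2 in lung overlapped those of bone marrow and spleen, and the range of Slc4a1 in lung lay below both; these ratios were not tested. Over the libraries with at least 100 Hba-a1 reads, Alas2 per 1000 of Hba-a1 was 26.0 to 32.5 in bone marrow, 15.04 to 32.5 in spleen and 16.1 to 28.6 in lung without young mouse 2 (56.3). The inguinal library of aged mouse 3 read 28.1. Slc4a1 per 1000 of Hba-a1 was 19.3 to 62.6 in bone marrow, 8.25 to 36.3 in spleen, 0 to 6.58 in lung and 0.365 in that inguinal library. Klf1 per 1000 of Hba-a1 was 3.13 to 23.6 in bone marrow, 0.580 to 5.41 in spleen, 0 to 0.253 in lung without young mouse 2 (9.38), and 0 in the inguinal library. The other 5 lungs and that inguinal library held globin and Alas2 RNA with Klf1 at 0 or a single read. These lungs held 456 to 3946 Hba-a1 reads. At that depth the lowest spleen ratio of Klf1 (0.580) would give few reads or none, so Klf1 does not separate them from every spleen. The inguinal library of young mouse 2 differed from that of aged mouse 3, with Slc4a1 at 12.2 and Klf1 at 0.941 per 1000 of Hba-a1.

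**Figure D3:**
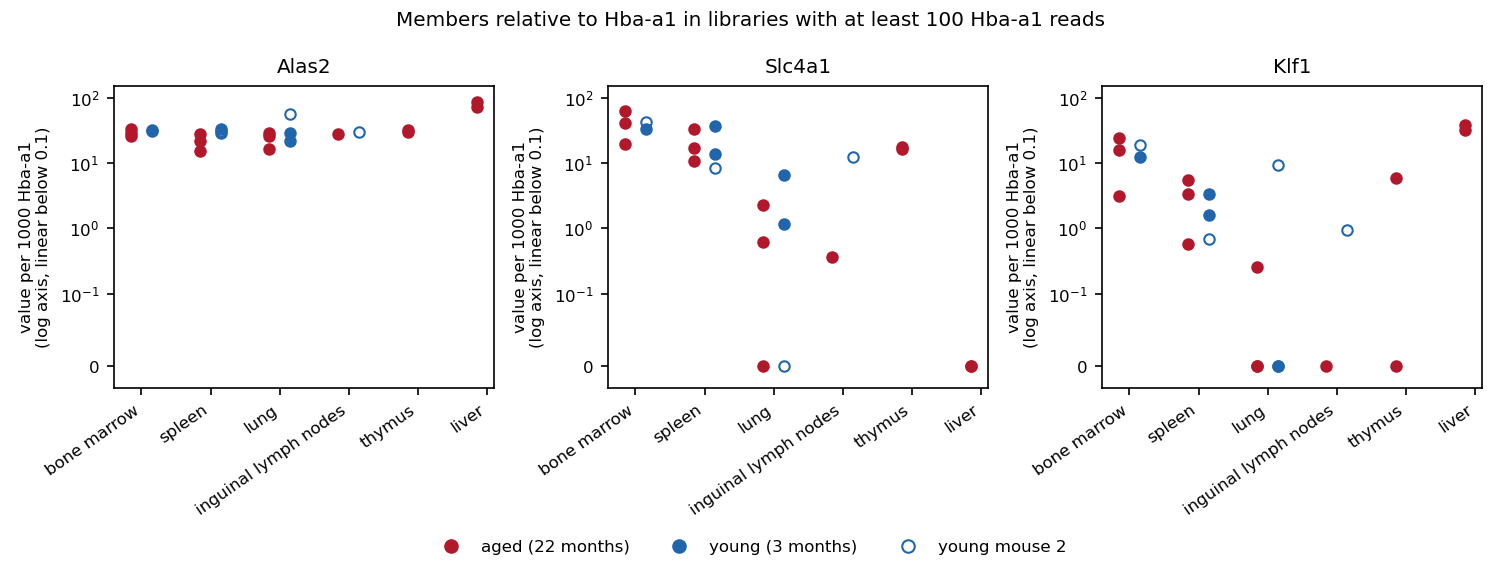
Alas2, Slc4a1 and Klf1 per 1000 of Hba-a1 signal (y axes, log scale, linear below 0.1) in each library with at least 100 Hba-a1 reads, by tissue. Alas2 keeps 15.04 to 32.5 in bone marrow and spleen, while Slc4a1 and Klf1 reach 0 in lung.

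In the other organs the globin signal was small. As a share of the bone marrow and spleen median, Hba-a1 ran from 0.219% to 4.43% in thymus, 0.435% to 3.74% in liver, 0.590% to 1.71% in cervical nodes, 0.207% to 1.45% in mesenteric nodes, 0.229% to 1.26% in choroid plexus, 0.140% to 0.867% in hippocampus and 0.0571% to 0.762% in colon. Markers of other organs, as a share of their median in the home organ, gave a measure of what such small shares hold. In choroid plexus, summed lung epithelium markers ran from 0.0647% to 0.126%, liver markers from 0.0423% to 0.0825%, colon markers from 0.132% to 0.307% and neurons from 0.106% to 0.434%. Neutrophil markers, as a share of bone marrow, ran from 0.212% to 0.473%. Hba-a1 there lay above the lung and liver markers in all 6 libraries and overlapped the colon, neuron and neutrophil markers. In colon, where lung markers ran from 0.0496% to 0.0985%, the Hba-a1 shares of young mouse 1 (0.0571%) and young mouse 2 (0.0700%) lay inside that range. Neuron markers in colon ran from 0.202% to 0.376% and neutrophil markers from 0.264% to 0.427%, both inside the Hba-a1 range. Across the 52 libraries of these 9 organs, Pearson's r of Hba-a1 with the beta globin Hbb-bt was 0.971, with Alas2 0.841, with the neutrophil gene S100a8 0.750 with the platelet genes Ppbp 0.738 and Pf4 0.448, with Slc4a1 0.487 and with Klf1 0.0886; the libraries share mice, depth and tissue, and this is a description.

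Car1 and Tfrc followed another pattern there. Car1 in colon read 817, 1713 and 3400 in the aged and 4272, 2587 and 1539 in the young, above every marrow library, and differed from the mean of the other 8 organs by 9.44 (adjusted p = 1.2e-13, limma); 49.4% of genes were called. The other value over 10 outside the blood forming organs was 1116 in the mesenteric nodes of young mouse 2, the library with colon markers. Tfrc in colon read 31.8 to 87.1 (2.30, adjusted p = 3.7e-10), overlapping the range of bone marrow (41.0 to 111) and reaching below it, and was also called higher in hippocampus (13.1 to 40.0; 0.65, adjusted p = 0.0267), where 63.7% of genes were called. Tfrc was called lower in choroid plexus (2.44 to 11.2; -1.49), inguinal nodes (1.49 to 13.7; -1.26, 36.9% called) and liver (2.94 to 15.1; -0.75).

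The liver differed from lung in its mixture. Alas2 read 12.8 and 16.1 in the aged and 19.3, 7.92 and 15.1 in the young livers and was called higher (2.31, SE 0.54, adjusted p = 0.0004, limma), with 54.7% of genes called. Klf1 was above 0 in all 5 livers, from 1.49 to 11.0, and Slc4a1 was listed at 0 in all 5. Choroid plexus (63.9% called) was lower for Alas2 (-1.496) and Epor (-1.72), with Klf1 listed at 0 in all 6 libraries. Colon was lower for Hba-a1 (-2.51), Alas2 (-1.55) and Epor (-1.75), and hippocampus for Hba-a1 (-1.72), Alas2 (adjusted p = 0.0187) and Car1 (-1.92). With all libraries no member was called in thymus, cervical nodes or mesenteric nodes, where 46.4%, 26.5% and 37.2% of genes were. Over the 9 organs, 17 pairs of a member and an organ were called, from the 5 members tested, where 46.1% of all pairs of a gene and an organ were; Slc4a1 and Klf1 did not pass the filter there. Without young mouse 2, Hba-a1 (-1.63, adjusted p = 0.0538) and Alas2 (-1.07, adjusted p = 0.0927) were no longer called in hippocampus. Car1 was then called lower in lung (-1.67), inguinal (-1.69) and mesenteric nodes (-1.37), and Epor higher in mesenteric nodes (1.32, adjusted p = 0.00674, limma). With the liver of young mouse 1 and the inguinal nodes of aged mouse 3 left out too, Hba-a1 (-1.48, adjusted p = 0.0106) and Alas2 (-0.93, adjusted p = 0.0146) were called lower in hippocampus and Alas2 in mesenteric nodes (-0.96, adjusted p = 0.0189), and Tfrc in liver was not called (-0.62, adjusted p = 0.13).

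By median, Hba-a1 went from spleen (6367) and bone marrow (5277) to lung (1201), cervical nodes (55.4), inguinal nodes (52.0), liver (50.5), thymus (43.7), choroid plexus (23.0), mesenteric nodes (20.6), hippocampus (14.7) and colon (8.55). Bone marrow (7021) stood before spleen (6624) without young mouse 2, where liver (101) was the fourth, above cervical nodes (69.4) and thymus (57.3), and inguinal nodes (45.8) were the seventh. With all libraries, neighbours from cervical nodes to colon overlapped in range, as did spleen and bone marrow. Epor went from bone marrow (44.0) and spleen (11.99) to medians of 1.66 to 6.78 in lymph nodes, hippocampus, lung, liver and thymus, and was listed at 0 in 4 of 6 choroid plexus and 4 of 6 colon libraries. Tfrc went from bone marrow (67.8) and colon (59.1), which overlapped, to choroid plexus (3.89).

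Age comparisons in these organs called 1 member in 1 organ. Hba-a1 in thymus read 57.3, 271 and 170 in the aged and 13.4, 30.2 and 15.2 in the young mice, with no overlap, as in 11.5% of all genes. The log2 difference was 2.86 (SE 0.54, adjusted p = 0.0499, limma), where 1.18% of 10962 genes were called. The call was lost without aged mouse 2 (adjusted p = 0.0899), aged mouse 3 (0.180), young mouse 1 (0.238) or young mouse 3 (0.176). It was also lost with median of ratios scaling (0.0536), with a smaller (0.0742) or larger (0.0696) added constant and with an untrended fit (0.135). Alas2 in thymus read 5.16, 8.76 and 5.00 against 0, 1.07 and 1.07 (2.31, adjusted p = 0.135, limma). Of 5 globin genes tested 3 were called. That list holds Hba-a1 itself and Hba-a2, whose values are identical, so the count is not separate support. Marker sums of other cells moved with age in thymus: platelets 22.4 to 27.0 in the aged and 7.92 to 17.1 in the young, endothelium 105 to 123 and 69.1 to 72.3, iron recycling macrophages 567 to 1150 and 387 to 501, all with no overlap, and fat cells 826 to 2736 and 271 to 1333, which overlapped. The overlap in fat cells came from young mouse 2 (1333), with 271 and 297 in the other young mice. The part of all these cells in the result was not tested.

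In liver, Hba-a1 read 152 and 228 in the 2 aged and 50.5, 26.6 and 43.9 in the 3 young mice, with no overlap (10.9% of all genes). The difference of 2.23 was not called (adjusted p = 0.384, limma; 0.0186% of genes called). It was called after scaling to the same total (2.08, adjusted p = 0.0241, limma) and without young mouse 2 (1.96, adjusted p = 0.00187), and not without young mouse 1 (2.41, adjusted p = 0.978). Each fit without a young mouse holds 2 aged and 2 young livers. The liver of young mouse 1 held lung markers and that of young mouse 2 thymocyte markers. In colon Hba-a1 read 6.67, 46.6 and 36.4 against 3.49, 4.28 and 10.4 (1.91, adjusted p = 0.33, limma, with 0.125% called). It was called there without aged mouse 1 (2.73, adjusted p = 0.00762, limma). In lung the ages overlapped (1.16, 95% interval -1.03 to 3.35; 0.00852% called), with 0.66 without young mouse 2.

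Choroid plexus Hba-a1 read 19.6, 31.8 and 77.0 in the aged and 14.0, 19.0 and 26.5 in the young mice, which overlapped (0.89, 95% interval 0.10 to 1.67, adjusted p = 0.728, limma; 0.317% called). Tfrc there differed by -0.08 (-1.32 to 1.16). Of the red cell lists in choroid plexus 1 gene was called, Tmod1, a cap protein of actin filaments (55.1 against 19.9, 1.45, adjusted p = 0.003). No member was called in cervical nodes (0.293% of genes called; Hba-a1 -0.48), mesenteric nodes (0.038%; 1.301), hippocampus (0; 1.02) or inguinal nodes (0; 0.55). In hippocampus 353 and in inguinal nodes 438 genes had an unadjusted p under 0.05. Inguinal Tfrc read 1.49, 5.09 and 1.68 in the aged and 13.7, 8.14 and 10.6 in the young mice, with no overlap (6.77% of all genes), a difference of -1.63 (adjusted p = 0.838). Without aged mouse 3, whose library held fat cell RNA, it was -1.49 (adjusted p = 0.438), and that of Hba-a1 there turned from 0.55 to -1.84 (adjusted p = 0.854).

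**Figure D4:**
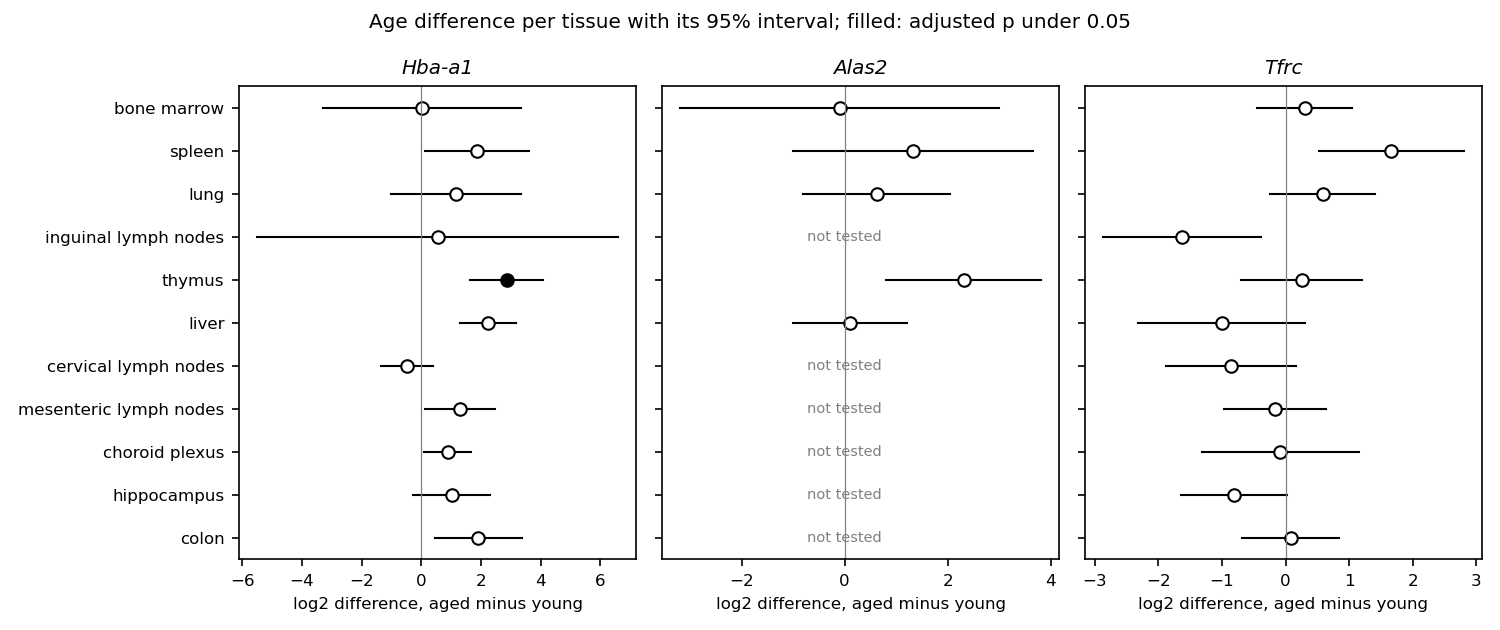
Log2 difference of aged minus young (x axes, points) with its 95% interval (lines) for Hba-a1, Alas2 and Tfrc in each tissue (rows). Hba-a1 lies above 0 in 10 of 11 tissues, which come from the same mice. In bone marrow and inguinal nodes this sign turned in other fits. The filled point, thymus, is the 1 called at an adjusted p under 0.05.

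Because organs of 1 mouse share its perfusion, Hba-a1 was also averaged per mouse over the 9 organs, as the deviation of log2 values from the organ mean. The aged mice read -0.41, 0.89 and 1.46 and the young -1.18, -0.47 and -0.32, so aged mouse 1 lay among the young. The difference was 1.305 with a two-sided exact permutation p of 0.2, where 3 mice against 3 cannot give less than 0.1.

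In the parabionts no member was called in any of the 4 comparisons, which share groups. Old against young isochronic called 25 of 13310 genes (0.188%), old against young heterochronic 19 (0.143%), and the comparisons of heterochronic with isochronic animals of the same age none (0% each, with 859 genes in the young and 1184 in the old at an unadjusted p under 0.05; limma). Hba-a1 read 63.8, 85.1 and 107 in young isochronic, 55.5, 60.4 and 47.1 in young heterochronic, 57.4, 55.8 and 48.6 in old isochronic and 46.0 and 90.2 in old heterochronic animals. The old isochronic and the young heterochronic values each lay below all 3 young isochronic ones. The difference was -0.62 for old isochronic (SE 0.20, adjusted p = 0.673, limma) and -0.62 for young heterochronic (SE 0.20, adjusted p = 0.651, limma). Such separation was seen in 4.91% and 5.63% of genes; the 2 comparisons share the young isochronic animals. The first was called when only those 2 groups were fitted (adjusted p = 0.0421).

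Tfrc in the parabionts read 46.4, 43.8 and 49.5 in young isochronic, 74.5, 37.9 and 54.5 in young heterochronic, 62.5, 52.8 and 94.5 in old isochronic and 54.0 and 48.8 in old heterochronic animals. Old isochronic lay above young isochronic in all libraries (5.71% of genes) by 0.53 (SE 0.20, adjusted p = 0.766, limma). Alas2 was 14.0 in 1 young isochronic animal and 0 to 4.64 in the other 10. It lay lower in both old heterochronic animals (1.13 and 0) than in the old isochronic (1.82 to 4.26; 13.6% of genes) and in the young heterochronic animals (2.01 to 4.64; 11.9% of genes), at 1 read and 0. Epor read 0 to 3.63, Slc4a1 0 to 2.96, Klf1 0 to 2.99 and Car1 0 to 1.48 and did not pass the filter.

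**Figure D5:**
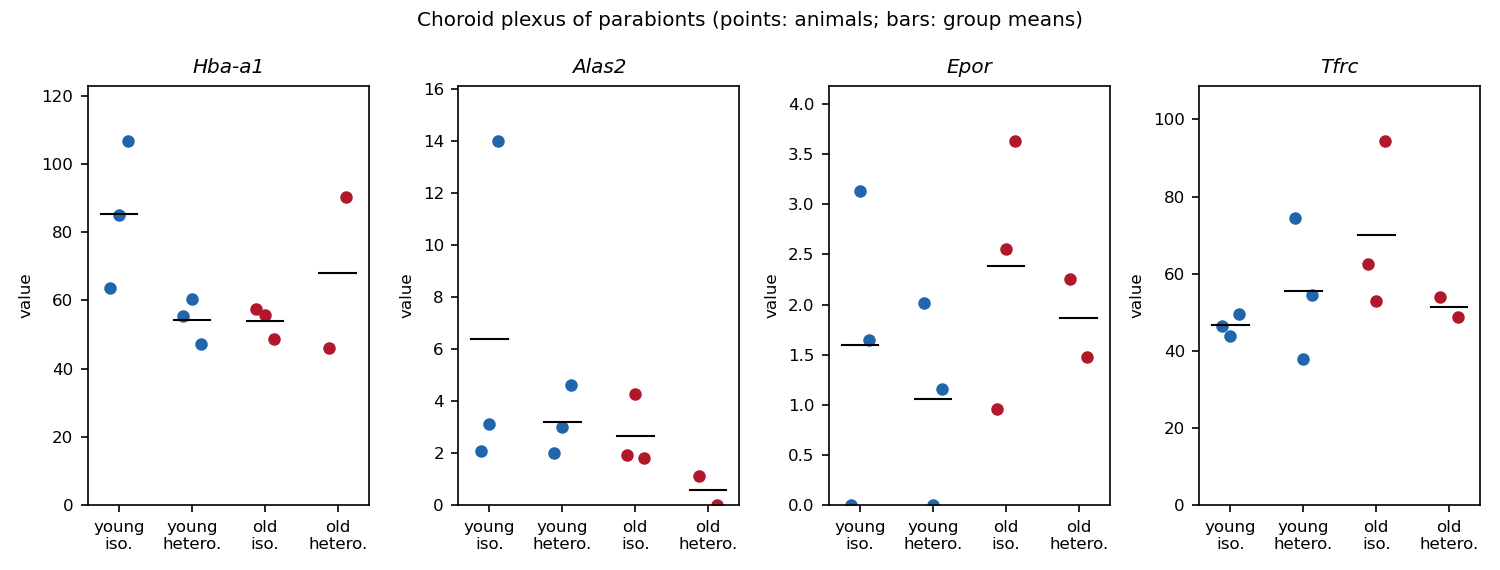
Hba-a1, Alas2, Epor and Tfrc (y axes, value from 0) in the choroid plexus of each parabiont (points; bars are group means). The 3 young isochronic animals have Hba-a1 of 63.8 to 107 and lie above the young heterochronic and old isochronic groups.

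Across the 63 tissue libraries, the genes most like 6 of the members were found by Pearson's r of log2 values over 15248 genes. For Hba-a1 they were the beta globins Hbb-bs (0.989), Hbb-b2 (0.986) and Hbb-bt (0.986), and for Alas2 Hba-a1 (0.937), Hba-a2 (0.937) and Hbb-b2 (0.934). Hba-a1 and Hba-a2 had identical values, and Hbb-b2 and Hbb-bt had the same r, so these may not be separate neighbours. Klf1 was most like Rhag (0.899), Btnl10 (0.889) and Kel (0.884). Car1 was most like Ceacam10 (0.904), Muc13 (0.884) and Mir147 (0.873). Epor was most like Tyrobp (0.807), Hk3 (0.806) and Clec4a2 (0.803), and Tfrc most like R3hdm4 (0.722), Lypd10 (0.720) and Cd177 (0.708). Libraries share mice, organs and depth, so these are descriptions. Between members, r was highest for Hba-a1 with Alas2 and lowest for Car1 with Epor (-0.0654).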

How the data were processed

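RNA-seq of perfused mouse organs and of parabiont choroid plexus was analysed from 2 tables. Per the submitters' processing notes, TopHat and mm9 were used; for versions, counting and scaling nothing is stated. The values deposited by the authors are a signal: 78.0% to 85.6% of the nonzero values of a tissue library and 85.3% to 86.8% of a parabiont library were whole multiples (tolerance 0.001) of 1 value per library, taken as the worth of 1 read. Of 75 labelled samples 74 were analysed, and 1 column of no listed sample was not used. log2(value + the median worth of 1 read) was fitted with limma 3.58.1 (trend and robust settings) in R 4.3.3. Genes at 4 times that constant in as many libraries as the smaller group were tested, with Benjamini-Hochberg adjustment over all of them. The fit was tested on simulated data. The members and lists were chosen with earlier results of these data known. Named list genes are up to 4 per red cell list and 3 per other list with the smallest p in a contrast; Epo was added after its values were seen. Bone marrow and spleen with the same number come from the same mouse; correlations of their deviations were 0.12, 0.13, -0.02, 0.09 and 0.14. Between ages and parabionts numbers do not pair animals. Each library is a separate animal's organ per the labels. Alternatives were other scalings, added constants, filters, settings, blocks and left-out libraries. Depth per library is given with the results, and its counting error limits values of a few reads. The genes most like Slc4a1 are not reported here.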

Additional observations from a re-analysis of the deposited data

Results flagged for a closer look

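Tfrc was fitted in opposite directions with age in spleen, where all 3 aged libraries were higher (1.66), and in inguinal lymph nodes, where all 3 were lower (-1.63). Such separation was seen in 8.82% and 6.77% of all genes tested. The inguinal values were 1, 5 and 1 reads in the aged and 9, 10 and 8 in the young, and the library of aged mouse 3 held fat cell RNA. Neither difference was called, and the difference between the organs was not tested. With the mouse as a block, the effect of age in bone marrow minus that in spleen was called for Hba-a1 (-2.38), Slc4a1 (-3.10) and Klf1 (-3.39). This fit rests on 2 young and 3 aged mice with both organs, and the spleen library of young mouse 2 held lung RNA. The unpaired fit called no member. The block fit called none without aged mouse 2, and Slc4a1 alone without aged mouse 1.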

How the results depend on the processing

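With the mouse as a block 5 members were called between bone marrow and spleen, and 5 in each block fit without 1 aged mouse. Without young mouse 2 and no block 1 member was called. The difference in age effect gave 3 with the block. It gave 1 in the block fit without aged mouse 1, none without aged mouse 2 and 4 without aged mouse 3. Block fits without a young mouse, for this difference and for bone marrow against spleen, are not counted here. Leaving out 1 replicate gave 0 to 1 called member in colon, liver and thymus. Liver gave 1 with the same total and 1 with the replicate block, where the number pairs no animals and 5 libraries leave 1 residual degree of freedom, so that its p is no support; thymus gave 0 with median of ratios scaling, both other constants and no trend; old against young isochronic gave 1 with only those 2 groups. The replicate block moved no other count of called members by over 1.5 times. Summing rows multiplied Alas2 and Car1 by 2. The cause of these changes was not tested. For the difference in age effect, fits without a young mouse leave 1 young mouse. Block fits without 1 mouse, organ contrasts without mixed libraries and spleen lists without young mouse 2 were added after seeing the data. Differences that changed sign, none of them called in the fit as reported, were as follows. Hba-a1 bone marrow against spleen gave 0.0566 (replicate block), 0.20 (replicate block without aged mouse 1), 0.16 (replicate block without aged mouse 2), 0.17 (replicate block without young mouse 3), -0.57 to 0.15 without 1 replicate. Alas2 bone marrow against spleen gave -0.12 (quantile normalization), -0.18 (same total per library), -0.31 to 0.39 without 1 replicate. Hba-a1 by age in bone marrow gave -0.0579 (quantile normalization), -0.0671 (same total per library), -0.00328 (median of ratios scaling), -0.70 to 0.73 without 1 replicate. Alas2 by age in bone marrow gave -0.78 to 0.58 without 1 replicate. Slc4a1 by age in bone marrow gave -0.54 to 0.59 without 1 replicate. Car1 by age in bone marrow gave -0.58 to 0.080 without 1 replicate. Epor by age in cervical lymph nodes gave -0.25 to 0.87 without 1 replicate. Tfrc by age in choroid plexus gave -0.36 to 0.20 without 1 replicate. Tfrc by age in colon gave -0.30 to 0.39 without 1 replicate. Epor by age in hippocampus gave 0.12 (pseudocount 4 times as large), -0.70 to 1.04 without 1 replicate. Hba-a1 by age in inguinal lymph nodes gave -1.84 to 2.03 without 1 replicate. Alas2 by age in liver gave -0.0333 (same total per library), -0.24 (replicate block), -0.23 to 0.36 without 1 replicate. Epor by age in lung gave -0.31 to 0.0129 without 1 replicate. Epor by age in mesenteric lymph nodes gave -0.65 to 1.17 without 1 replicate. Tfrc by age in mesenteric lymph nodes gave -0.43 to 0.086 without 1 replicate. Tfrc by age in thymus gave -0.17 to 0.69 without 1 replicate. Alas2 parabionts young heterochronic against young isochronic gave -0.95 to 0.20 without 1 replicate. Tfrc parabionts young heterochronic against young isochronic gave -0.0329 to 0.45 without 1 replicate. Hba-a1 parabionts old heterochronic against old isochronic gave -0.22 to 0.73 without 1 replicate. Hba-a1 parabionts old heterochronic against young heterochronic gave -0.23 to 0.73 without 1 replicate. Tfrc parabionts old heterochronic against young heterochronic gave -0.31 to 0.17 without 1 replicate. Values of a few reads limit Slc4a1, Klf1 and Epor outside bone marrow and spleen.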
